A study of Homo sapiens with 4 samples.

Results

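The UBE2, UBE3 and UBE4 genes encode enzymes that attach ubiquitin, or a protein like it, to other proteins. They were chosen by symbol alone, as the protein-coding genes whose symbol starts with UBE2, UBE3 or UBE4, and 43 of the 58051 genes in the deposited counts met this rule (37 UBE2, 4 UBE3 and 2 UBE4 genes). Of these, 38 had enough counts to be tested among 18046 tested genes. PolyA RNA was sequenced from A549, a long-used cell line from a human lung carcinoma, in which a doxycycline-inducible A-FOS had been inserted at random sites by the piggyBac transposase. The plus Dox group has 2 libraries from these cells with doxycycline at 1 µg/mL, and the minus Dox group has 2 libraries from the same A-FOS cells with no treatment. A-FOS is a dominant-negative FOS that ties up JUN partners in dimers unable to bind DNA, so that the contrast asks how transcripts differ when AP-1, the family of FOS and JUN dimers, is blocked. Every library carries the insertion and none has doxycycline without it, so doxycycline and A-FOS induction cannot be told apart. Nothing in the labels tells whether both libraries of each group are separate cultures, so the p-values here reflect only the spread between these libraries, which may be technical. The labels also leave out for how long doxycycline was given or whether the cells were 1 clone.

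Ubiquitin is passed along a chain of 3 kinds of enzyme. An E1 activates it, an E2, or ubiquitin-conjugating enzyme, carries it on a cysteine, and an E3 ligase brings the loaded E2 to the protein to be marked. The E2 often decides what is built: a single ubiquitin, a chain joined through lysine 48 that sends proteins to the proteasome, a chain joined through lysine 63 that serves in signalling and DNA repair, or a chain through lysine 11 in mitosis. Most UBE2 genes encode E2s, while UBE3 genes encode HECT-type or related E3 ligases and UBE4 genes encode U-box ligases that extend chains. Some UBE2 genes carry ubiquitin-like proteins instead, such as NEDD8 for UBE2M and UBE2F.

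Total counts were 32727539 and 31104964 in the plus Dox libraries, against 36377784 and 40526912 in the minus Dox libraries. Reads counted to FOS, which may include those of A-FOS, came to 48.6 and 51.0 CPM (counts relative to the TMM-scaled library size) in plus Dox and 1.36 and 1.52 CPM in minus Dox. Of 7 FOS and JUN genes 1, FOS, was higher and 4 lower, among them JUN at −1.79, beside 28.4% of all tested genes in each direction. Scaled by library size only, or with a trend on GC content, length and abundance removed, 2 were higher and 4 lower. Among epithelial keratins of the labelled cell type, KRT8 was abundant, at 3706 and 3607 CPM in plus Dox and 5233 and 5328 CPM in minus Dox. It was lower in plus Dox (log2 fold change −0.53), as were the other keratins looked up, some by far more. EPCAM was low at 1.90 to 3.55 CPM, and the alveolar markers SFTPC, SFTPB and NKX2-1 were at 0.178 CPM or less in every library. The T cell marker CD3E was at 0, and the leukocyte marker PTPRC and the fibroblast markers COL1A2 and DCN were at 0.227 CPM or less, while COL1A1 had 34.4 to 43.7 CPM. Other such markers were not near 0: CD14 had 1.01 to 2.54 CPM and PDGFRB 1.18 to 1.56 CPM, while CD68 had up to 0.503 CPM. Of the endothelial markers VWF was higher in plus Dox (0.483 and 0.656 CPM, against 0.0887 and 0). PECAM1 (0.119 to 0.534 CPM) and CDH5 (0.0298 to 1.09 CPM) were lower, as was CD14. In bulk RNA, fewer cells of a type and less RNA per cell cannot be told apart. The threshold for a call was an adjusted p of 0.05 (edgeR, quasi-likelihood, adjusted by Benjamini-Hochberg over all 18046 tested genes).

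More of the ubiquitin-conjugating genes were higher in plus Dox than lower. In this edgeR test 23 of the 38 tested members (60.5%) were higher in plus Dox, 6 (15.8%) were lower and 9 did not pass. Among all tested genes 28.4% were called higher and 28.4% lower, 56.9% in either direction, and among protein-coding genes alone 33.6% and 31.9%. The median log2 fold change was 0.23 over the 38 members and 0.00 over all tested genes. Most of the differences were small: 8 members were higher with a log2 fold change of at least 0.5 (15.8% of all tested genes were), 15 were higher by less, and 0 were lower by that much (13.3% of all tested genes were). In 23 members both plus Dox libraries lay above both minus Dox libraries, which held for 38.7% of all tested genes, in 8 both lay below, which held for 38.3%, and in 7 the groups overlapped. The UBE2 genes had 20 higher, 6 lower and 6 not past, the UBE3 genes 2 higher and 2 not past, and the UBE4 genes 1 higher and 1 not past. These counts depend on the scaling. Scaled by library size only, where the median over all tested genes is 0.22 on the log2 scale, 29 members were higher and 1 lower, beside 43.6% and 16.2% of all genes. DESeq2 called 23 members higher and 5 lower, beside 23.6% and 24.2%. With the trend of the fold change on GC content, length and abundance removed, 21 were higher and 4 lower, beside 27.0% and 25.2%. Counts of roles and pathway lists below are to be read beside the shares of all genes in the same setting.

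**Figure D1:**
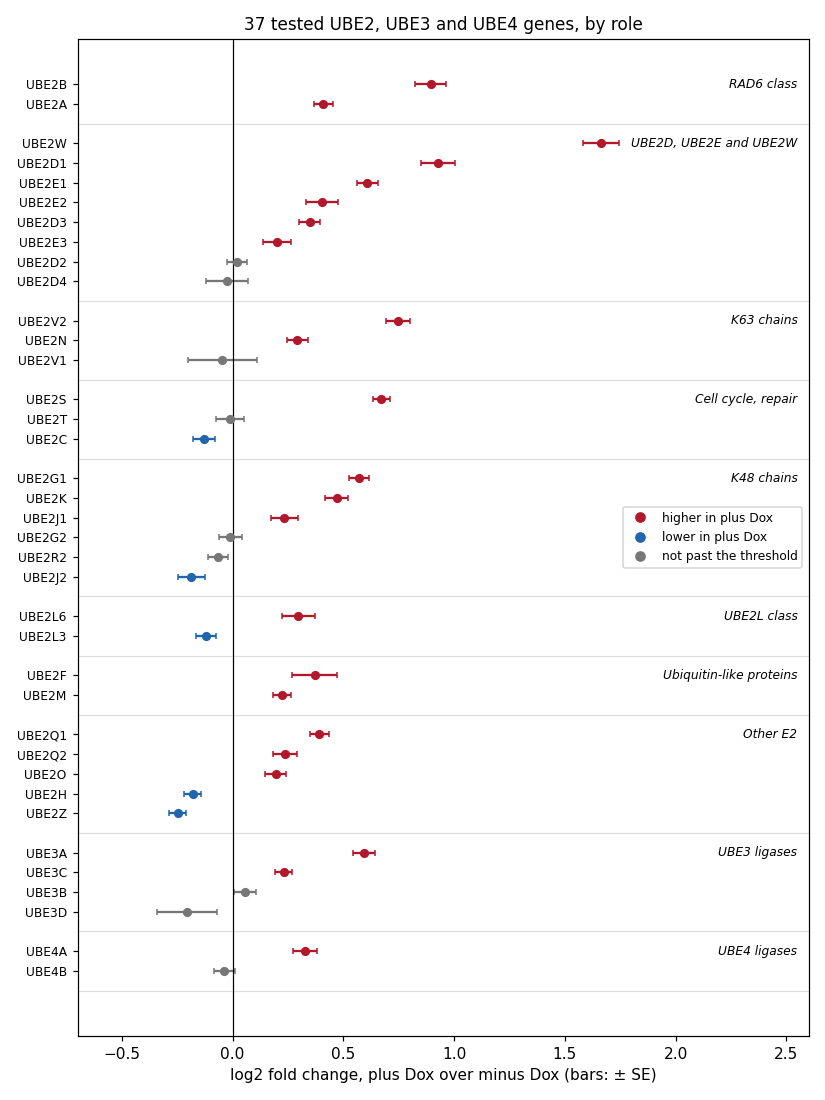
Fitted log2 fold change of plus Dox over minus Dox (x axis) for 37 tested members, grouped by role, with bars of ± 1 SE derived from edgeR's F statistic. Points of 23 members called higher lie right of 0, up to UBE2W at 1.66, and those of the 5 called lower that are shown lie left of it, with UBE2Z at −0.25.

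Together the members made up a larger part of the libraries in plus Dox. Their counts came to 0.430% and 0.432% of the library in plus Dox and 0.326% and 0.319% in minus Dox. After TMM scaling their summed level was 3996.2 and 4006.5 CPM in plus Dox, against 3502.1 and 3444.6 CPM in minus Dox, so the groups did not overlap on either scale. Per length, in TPM (counts per length brought to the same sum in every library, without TMM scaling), the sum was 4414.9 ± 9.0 in plus Dox and 3173.8 ± 28.8 in minus Dox (SD, n = 2 each). A rise without TMM scaling was not particular to the family. With library size only the median tested gene was 0.22 higher on the log2 scale. Summed TPM was higher in plus Dox for every gene list looked at except the FOS and JUN genes. For the deubiquitinases it was 3795.7 and 3849.5 in plus Dox and 3163.5 and 3186.6 in minus Dox.

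A few members supplied much of this level. Averaged over the 4 libraries, the NEDD8 enzyme UBE2M had 448 TPM and UBE2S, which extends lysine 11 chains in mitosis, had 432 TPM. They were followed by its partner UBE2C at 282 TPM, UBE2Z at 196 TPM and the general-purpose enzyme UBE2D2 at 163 TPM. These 5 genes held 39.9% of the summed member TPM in plus Dox and 40.4% in minus Dox. At the lower end of the tested members, UBE2W had 14.5 TPM, UBE2F 13.5, UBE2D4 12.7, UBE3D 4.33 and UBE2V1 4.27 TPM. In the order of mean levels, 10 of 42 neighbouring pairs lay apart in both groups and in the same order, among them UBE2S over UBE2C, UBE2C over UBE2Z and UBE2Z over UBE2D2. Another 16 pairs, UBE2M and UBE2S among them, lay apart in both groups but in opposite orders, and the ranges of the remaining 16 overlapped in at least 1 group.

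Per length of exon, the gene with the highest level of the family differed between the groups. UBE2S made up 12.9% and 12.8% of the summed member TPM in the plus Dox libraries, against 9.12% and 9.63% in the minus Dox libraries. The shares of UBE2M were 11.98% and 11.69% in plus Dox and 11.45% and 12.11% in minus Dox, and these overlap. Thus UBE2S lay above UBE2M in TPM in both plus Dox libraries and below it in both minus Dox libraries. That order depends on the length used for each gene (2788 bases of exon for UBE2S and 1831 for UBE2M). With the longest transcript as length it did not hold, and UBE2M then lay above UBE2S in every library. UBE2C took 6.59% and 6.76% in plus Dox and 8.25% and 8.70% in minus Dox, and UBE2Z took 4.45% and 4.45% in plus Dox and 6.06% and 6.21% in minus Dox. Both had a smaller share in plus Dox with no overlap. Their TPM itself was not lower there, with means of 294.7 in plus Dox and 268.9 in minus Dox for UBE2C, and 196.3 and 194.6 for UBE2Z.

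**Figure D2:**
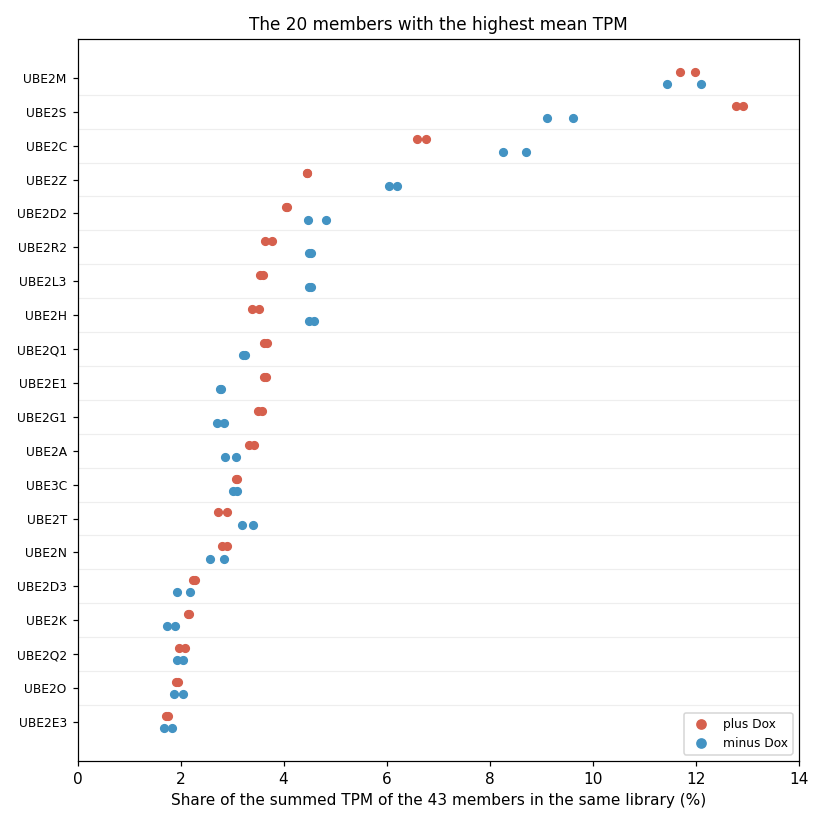
Share of each of the 20 most abundant members in the summed TPM of all 43 members of the same library (x axis, percent), with 1 point per library. UBE2S stands at 12.9% and 12.8% in plus Dox and 9.12% and 9.63% in minus Dox, while UBE2C and UBE2Z lie further right in minus Dox.

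The RAD6 pair, UBE2A and UBE2B, marks histones with single ubiquitins during transcription and marks the sliding clamp PCNA after DNA damage. Both genes were higher in plus Dox. UBE2B (ENSG00000119048, chromosome 5, 134371179 to 134391992 in hg38, plus strand) had 45.9 and 44.9 CPM in plus Dox, against 23.8 and 25.0 CPM in minus Dox. Each plus Dox library lay well above each minus Dox library, a 1.86-fold difference with a log2 fold change of 0.89 (SE 0.07, edgeR adjusted p = 9.1e-14). UBE2A, on the X chromosome, had 169 and 164 CPM in plus Dox and 130 and 121 CPM in minus Dox, a log2 fold change of 0.41. The call on UBE2A turned round after removal of the GC, length and abundance trend (−0.21, edgeR adjusted p = 1.17e-04), where UBE2B kept 0.74, and a gene on the opposite strand overlaps 18.1% of the exon bases of UBE2A. UBE2B made up 30.4% of the pair's TPM in plus Dox and 23.8% in minus Dox.

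UBE2D, UBE2E and UBE2W enzymes start chains or add single ubiquitins with many RING-type ligases. Of the 8 genes 6 were higher in plus Dox, 0 lower and 2 did not pass, beside 28.4% of all tested genes in each direction. UBE2W (ENSG00000104343, chromosome 8), which attaches ubiquitin to the amino terminus of proteins, had the largest fold change of the family with TMM scaling. It had 41.6 and 46.4 CPM in plus Dox, against 14.8 and 13.0 CPM in minus Dox, a 3.17-fold difference with a log2 fold change of 1.66 (SE 0.08, edgeR adjusted p = 3.2e-19). With the trend removed it was 0.96 and still called, below UBE2S at 1.01.

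Among the UBE2D genes, which encode closely similar enzymes, UBE2D1 had the largest fold change with TMM scaling, and UBE2D2 and UBE2D4 did not pass. UBE2D1 (ENSG00000072401, chromosome 10, 58334975 to 58370753, plus strand) had 34.2 and 34.5 CPM in plus Dox, against 18.6 and 17.5 CPM in minus Dox. The groups were well apart, at 1.90-fold and a log2 fold change of 0.93 (SE 0.08, edgeR adjusted p = 5.8e-13), but the value was 0.15 and no longer called with the trend removed (adjusted p = 0.0896). UBE2D3 had 213 and 209.8 CPM in plus Dox and 177 and 156 CPM in minus Dox, a log2 fold change of 0.35 (0.14 and still called with the trend removed). UBE2D2, the most abundant per length, had 135 and 134 CPM in plus Dox and 138 and 127 CPM in minus Dox, which overlap, and did not pass (0.02, edgeR adjusted p = 0.738). It passed as higher with library size only (0.24) and after the trend was removed (0.18). UBE2D4 had 14.2 and 13.1 CPM in plus Dox and 13.84 and 13.98 CPM in minus Dox, and it did not pass. In TPM, from which no trend is removed, the make-up of this quartet of paralogs differed. UBE2D1 was 13.8% of its TPM in plus Dox and 8.36% in minus Dox, and UBE2D2 52.8% in plus Dox and 60.2% in minus Dox. With the trend removed UBE2D1, UBE2D2 and UBE2D3 had close log2 fold changes (0.15, 0.18 and 0.14), with UBE2D4 at −0.029, so the difference in make-up depends on the scaling.

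The UBE2E genes encode a closely related trio with a longer amino-terminal part. UBE2E1 (ENSG00000170142, chromosome 3, 23805903 to 23891316, plus strand) had 105 and 104 CPM in plus Dox and 68.2 and 68.3 CPM in minus Dox, a log2 fold change of 0.61 (SE 0.05, edgeR adjusted p = 4.0e-13). UBE2E2 had 34.2 and 32.7 CPM in plus Dox and 24.4 and 26.1 CPM in minus Dox (0.40). UBE2E3 had 47.6 and 48.5 CPM in plus Dox and 43.9 and 39.8 CPM in minus Dox (0.20), and its call was lost without minus Dox replicate 2 (edgeR adjusted p = 0.132) or plus Dox replicate 2 (0.0912). All 3 lay higher in plus Dox with no overlap, and UBE2E1 made up 56.2% of the trio's TPM in plus Dox, against 50.5% in minus Dox. Of 30 tested RING and U-box ligases outside the family, partners of such E2s, 13 were higher and 8 lower (median 0.11; 22 and 3 with library size only, 11 and 3 after trend removal). RBCK1 of the linear chain complex was lower at −0.76, and HLTF, XIAP and UBR1 were higher at 0.62, 0.51 and 0.61.

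**Figure D3:**
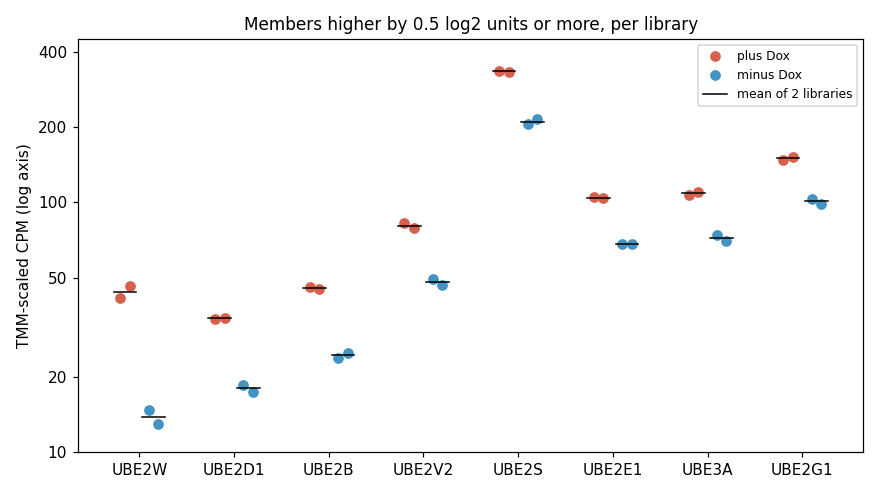
TMM-scaled CPM (y axis, log scale) of the 8 members called higher with a log2 fold change of at least 0.5, with 1 point per library and a line at the mean of each group of 2. In every gene shown both plus Dox points lie above both minus Dox points, with UBE2W at 41.6 and 46.4 CPM against 14.8 and 13.0 CPM.

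UBE2N builds lysine 63 chains together with UBE2V1 or UBE2V2, which have the E2 fold without the catalytic cysteine. The partner UBE2V2 (ENSG00000169139, chromosome 8), known for its part in DNA damage tolerance, had 82.7 and 78.7 CPM in plus Dox, against 49.3 and 46.9 CPM in minus Dox. It was 1.68-fold higher (log2 fold change 0.75, SE 0.06, edgeR adjusted p = 4.5e-14), and with the trend removed the value was 0.02 and not called (adjusted p = 0.837). The enzyme UBE2N itself had 164 and 169.7 CPM in plus Dox and 144 and 129 CPM in minus Dox (0.29), but 39.5% of its exon bases overlap NUDT4 on the opposite strand, which was higher as well (0.69), so its count is uncertain. UBE2V1 had 4.63 and 4.71 CPM in plus Dox and 4.67 and 4.96 CPM in minus Dox and did not pass. Its count is uncertain too, since 42.9% of its exon bases lie in a readthrough transcript with the neighbouring gene PEDS1 and 81.2% of its 50-base windows occur in another gene.

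UBE2C, UBE2S and UBE2T act in mitosis and DNA repair, and their calls differed. UBE2C starts and UBE2S extends the lysine 11 chains that the anaphase-promoting complex places on cyclins and securin. UBE2S (ENSG00000108106, chromosome 19, 55399745 to 55407777, minus strand) had 335 and 333 CPM in plus Dox, against 205 and 215 CPM in minus Dox. The groups were far apart relative to their spread, at 1.59-fold (log2 fold change 0.67, SE 0.04, edgeR adjusted p = 4.8e-17), and the value was 1.01 with the trend removed. Of the 50-base windows of UBE2S, 17.5% occur in another gene, most often in the processed copy UBE2SP1, which leaves that part of its count uncertain. The pseudogene UBE2SP1 had 6.62 and 7.46 CPM in plus Dox and 3.73 and 3.42 CPM in minus Dox.

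UBE2C had 79.0 and 81.0 CPM in plus Dox, against 85.4 and 89.5 CPM in minus Dox. It was called lower (−0.13, edgeR adjusted p = 0.0277), and this call was among the least stable of the family. It was lost without minus Dox replicate 2 (adjusted p = 0.0928), plus Dox replicate 1 (0.253) or plus Dox replicate 2 (0.109), in DESeq2 (0.0715) and after scaling by library size alone (0.088 on the log2 scale), and UBE2C was called higher with the trend removed (0.33). UBE2T, which works with the Fanconi anaemia ligase FANCL at DNA crosslinks, had 43.3 ± 1.89 CPM in plus Dox and 43.7 ± 2.21 CPM in minus Dox (SD, n = 2 each) and did not pass.

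Of 17 subunits and activators of the anaphase-promoting complex 3 were higher and 9 lower (median −0.16), and with library size only 8 were higher and 3 lower. The activator CDC20 was lower at −0.76 and the subunits ANAPC11 and ANAPC7 at −0.54 and −0.40, while CDC27 was higher at 0.47. Of 22 genes of the G2 and M phases 5 were higher and 11 lower, which became 12 and 2 with library size only and 5 and 3 after trend removal. The cyclin-dependent kinase CDK1 was higher (0.66) and the spindle factor TPX2 lower (−0.45), and CENPE, a kinetochore motor, was higher (0.59) except with the trend removed (−0.031, not called). Among 12 Fanconi proteins 3 were higher and 6 lower (5 and 2 with library size only), with FAAP100, FANCG and FANCI lower at −0.64, −0.46 and −0.29 (FANCI at −0.077 and not called with library size only) and FANCM higher at 0.70.

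The promoters of UBE2S, UBE2D1 and UBE2G1 are shown because these 3 genes were higher by at least 0.5 on the log2 scale and have a single start site in the RefSeq promoter table (GRCh38.p14), which gives 250 bases before to 50 after a start. The lone capital marks the start site and the run of capitals a TGACGTCA match, a palindromic site of CREB and ATF proteins to which some FOS and JUN dimers also bind. Each sequence reads 5′ to 3′ on the strand of its gene.
UBE2S, chr19:55407739-55408038, minus strand: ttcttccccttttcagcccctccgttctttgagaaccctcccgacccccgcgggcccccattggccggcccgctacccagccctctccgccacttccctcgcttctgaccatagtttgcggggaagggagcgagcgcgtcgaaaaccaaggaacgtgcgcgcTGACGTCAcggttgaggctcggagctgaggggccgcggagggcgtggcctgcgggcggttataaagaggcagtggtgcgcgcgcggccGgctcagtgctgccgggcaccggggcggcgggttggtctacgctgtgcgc
UBE2D1, chr10:58334756-58335055, plus strand: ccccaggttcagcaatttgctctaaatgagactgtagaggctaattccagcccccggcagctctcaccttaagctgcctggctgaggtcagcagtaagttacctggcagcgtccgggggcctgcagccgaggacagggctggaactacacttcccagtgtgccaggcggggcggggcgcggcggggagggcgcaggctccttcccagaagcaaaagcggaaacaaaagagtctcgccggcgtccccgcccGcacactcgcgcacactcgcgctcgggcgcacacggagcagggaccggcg
UBE2G1, chr17:4366626-4366925, minus strand: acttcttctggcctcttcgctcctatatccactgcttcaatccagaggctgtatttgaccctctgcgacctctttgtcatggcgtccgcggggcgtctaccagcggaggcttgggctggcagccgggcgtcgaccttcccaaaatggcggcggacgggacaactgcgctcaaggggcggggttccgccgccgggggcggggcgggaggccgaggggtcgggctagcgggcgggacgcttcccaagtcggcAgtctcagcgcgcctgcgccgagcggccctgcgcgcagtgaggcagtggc
Over the family, 34 of the 43 members had 48 windows in this table. The pattern TGANTCA, with any base as N, takes in the classical AP-1 motif but is wider than it. This pattern was found on either strand in 0 of the 48, against 7.71% of all 35116 windows and 5.57% of the 17648 windows of tested genes. TGACGTCA, searched on both strands, was found in 1 of the 48, that of UBE2S, where it begins 88 bases before the start, against 1.85% of all windows and 2.69% of those of tested genes. The motifs differ in the length between their arms, so that no stretch matches both. A match is a description of letters in this window and says nothing of binding in these cells.

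The E2s that build lysine 48 chains for the proteasome were split. Of 6, 3 were higher, 1 lower and 2 not past, beside 28.4% of all tested genes in each direction. UBE2G1 (ENSG00000132388, chromosome 17, 4269259 to 4366628, minus strand), which works with cullin ligases, had 148 and 152 CPM in plus Dox, against 104 and 98.2 CPM in minus Dox. Both plus Dox libraries lay above both minus Dox libraries (log2 fold change 0.57, SE 0.05, edgeR adjusted p = 2.5e-13), and the value was 0.47 with the trend removed. Its paralog UBE2G2, which serves degradation from the endoplasmic reticulum, had 71.7 and 67.8 CPM in plus Dox and 69.9 and 70.6 CPM in minus Dox, overlapping and not called. UBE2K, which makes lysine 48 chains without a ligase in vitro, had 106 ± 0.567 CPM in plus Dox and 76.4 ± 4.48 CPM in minus Dox (SD, n = 2 each; 0.47), and with the trend removed it was 0.02 and not called (edgeR adjusted p = 0.770). UBE2R2, a CDC34-type enzyme of the SCF ligases, had 141 ± 4.08 CPM in plus Dox and 147 ± 1.57 CPM in minus Dox (SD, n = 2 each), and it did not pass.

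UBE2J1 and UBE2J2 are anchored in the membrane of the endoplasmic reticulum, and with TMM scaling they were called on opposite sides. UBE2J1 was higher at 0.23, with 63.04 and 55.40 CPM in plus Dox and 50.3 and 50.6 CPM in minus Dox, and UBE2J2 was lower at −0.19, with 43.01 and 45.19 CPM in plus Dox and 49.8 and 50.6 CPM in minus Dox. Without plus Dox replicate 1 neither was called (edgeR adjusted p = 0.210 for UBE2J1 and 0.169 for UBE2J2), and UBE2J1 was also lost with the trend removed (0.798). With library size only UBE2J2 was at 0.030 and not called (0.701). Of 11 ligases and cofactors of degradation from this compartment 4 were higher and 3 lower (7 and 0 with library size only, 7 and 1 after trend removal). MARCHF6, SEL1L, RNF139 and DERL1 were higher, at 0.58, 0.48, 0.59 and 0.42.

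UBE2L3 and UBE2L6, a pair of related enzymes, were also called in opposite directions. UBE2L3 serves ligases such as parkin that take over the ubiquitin on their own cysteine. It had 127 and 129 CPM in plus Dox and 139 and 139 CPM in minus Dox (−0.12, edgeR adjusted p = 0.0172), and its call was lost without either plus Dox library (adjusted p = 0.204 without replicate 1 and 0.111 without replicate 2), with library size only (0.096) and after trend removal (0.054). UBE2L6, which carries the interferon-induced modifier ISG15, had 28.5 and 29.1 CPM in plus Dox and 23.7 and 23.3 CPM in minus Dox (0.30, edgeR adjusted p = 8.5e-04), and 0.49 with the trend removed. Of 18 genes of ISG15 conjugation and the interferon response 6 were higher and 5 lower, with a median of 0.00 (8 and 2 with library size only, 3 higher without plus Dox replicate 1). Among them the ISG15 ligase TRIM25 was lower at −0.60 and OAS1 at −0.49, while IFIT1 and IFI6 were higher at 0.51 and 0.46.

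SUMO ligases and proteases attach and remove the ubiquitin-like protein SUMO. Of 14, 10 were higher in plus Dox and 1 lower, beside 28.4% of all tested genes in each direction. Their median was 0.35, and with the trend removed 6 were higher and 3 lower. Those higher with TMM scaling include the proteases SENP5, SENP7 and SENP2 (0.63, 0.86 and 0.49, with SENP7 at 0.14 and not called with the trend removed).

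The NEDD8 enzymes UBE2M and UBE2F were both higher in plus Dox. UBE2M, which loads NEDD8 onto most cullins, had 204 and 199.6 CPM in plus Dox and 169 and 177 CPM in minus Dox (log2 fold change 0.22, edgeR adjusted p = 1.9e-05), and 0.58 with the trend removed. UBE2F, which loads it onto CUL5, had 14.6 and 14.7 CPM in plus Dox and 12.3 and 10.4 CPM in minus Dox (0.37), and it was not called without minus Dox replicate 2 (edgeR adjusted p = 0.0602). Its readthrough gene UBE2F-SCLY shares exons with it and had 0 and 0 counts in plus Dox and 6 and 1 in minus Dox. Of 21 cullins, RBX proteins and neddylation factors 10 were higher and 8 lower (13 and 3 with library size only). CUL5 itself was higher at 0.88, the NEDD8 ligase subunits DCUN1D1 and DCUN1D4 at 0.97 and 0.51, and the adaptor ELOB was lower at −0.43. With the trend removed DCUN1D4 and ELOB were no longer called.

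The other E2s also differed in direction, with 3 higher and 2 lower, beside 28.4% of all tested genes in each direction. UBE2Q1, UBE2Q2 and the very large UBE2O, which joins E2 and E3 activity in 1 protein, were higher at 0.39, 0.24 and 0.19. UBE2Z, charged by the second ubiquitin E1 UBA6, had 239 and 239 CPM in plus Dox, against 280 and 286 CPM in minus Dox (−0.25, edgeR adjusted p = 8.3e-07). UBE2H, the E2 of the CTLH ligase, had 205 and 213 CPM in plus Dox and 240.0 and 233.7 CPM in minus Dox (−0.18). Both were called lower with TMM scaling, and neither was called with library size only (−0.031 and 0.035) or after trend removal (−0.02 and 0.024).

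Of the ligases in the family, UBE3A, the HECT ligase whose loss causes Angelman syndrome, had the largest fold change with TMM scaling. UBE3A (ENSG00000114062, chromosome 15, 25333728 to 25439056, minus strand) had 107 and 110 CPM in plus Dox, against 73.7 and 69.9 CPM in minus Dox. The groups did not overlap (log2 fold change 0.60, SE 0.05, edgeR adjusted p = 8.9e-13), and it kept 0.35 with the trend removed, where UBE3C at 0.48 and UBE3D at −0.50 lay further from 0. UBE3C, which binds the proteasome, had 265 and 267 CPM in plus Dox and 224 and 229 CPM in minus Dox (0.23). UBE3B had 84.4 and 81.1 CPM in plus Dox and 81.2 and 78.1 CPM in minus Dox and did not pass, though it did with library size only (0.27) and after trend removal (0.21). UBE3D had 5.99 and 5.91 CPM in plus Dox and 7.16 and 6.59 CPM in minus Dox and did not pass (−0.21, edgeR adjusted p = 0.197), and it was called lower with the trend removed (−0.50). Of 25 other HECT ligases 11 were higher and 6 lower (median 0.10; 19 and 3 with library size only). NEDD4 was lower at −0.92, and WWP1, HECTD2 and G2E3 were higher at 0.76, 1.05 and 0.84, with G2E3 at −0.055 and not called with the trend removed.

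The U-box ligase UBE4A had 71.7 and 70.7 CPM in plus Dox, against 57.4 and 56.2 CPM in minus Dox (0.33), and 29.9% of its exon bases overlap a gene on the opposite strand. Its paralog UBE4B had 87.5 and 89.9 CPM in plus Dox and 89.4 and 92.4 CPM in minus Dox and did not pass. Apart from these, 5 members of the family had too few counts to be tested: UBE2Q2P16, UBE2L5, UBE2U, UBE2F-SCLY and UBE2QL1 had at most 10 counts in any library. A further 62 genes with these symbols are annotated as pseudogenes, antisense or other types and are not counted in the family. Of these 29 were at 0 in every library, and in each library all 62 together had 0.442% to 0.515% as many counts as the 43 members.

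Upstream of the E2s, 4 of 10 E1 genes were higher and 2 lower (median 0.10; 7 and 0 with library size only). UBA3, a subunit of the NEDD8 E1, and UBA6 were higher at 0.63 and 0.63, and UBA2 of the SUMO E1 at 0.23. With the trend removed UBA6 was no longer called (0.089). Of 13 tested genes for ubiquitin and its relatives 4 were higher and 7 lower (median −0.24; 5 and 5 with library size only). RPS27A and FAU, which encode fusions with ribosomal proteins, were lower at −0.53 and −0.50 (FAU at −0.086 and not called after trend removal), while ATG12 was higher at 0.68. Of 8 genes with the E2 fold but another symbol 3 were higher and 0 lower (8 and 0 with library size only, 4 and 2 after trend removal, and 1 higher without plus Dox replicate 1). These were TSG101 of the ESCRT machinery (0.30), the autophagy enzyme ATG3 (0.19) and BIRC6 (0.11), and ATG10 did not pass (0.17). ATG3 was at −0.028 and not called with the trend removed, and edgeR's adjusted p was 0.0600 for it without plus Dox replicate 1. BIRC6 was not called without minus Dox replicate 2 (edgeR adjusted p = 0.129), plus Dox replicate 1 (0.129) or plus Dox replicate 2 (0.208).

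The members called higher had transcripts of lower GC content than those called lower. The median GC content was 41.7% for the 23 higher members, 51.8% for the 6 lower members and 46.6% for the 9 not past. Across the 38 members Pearson's r between log2 fold change and GC content was −0.50, and across 17974 tested genes with an annotation it was −0.16. These are correlations across genes, which share the same 4 libraries and are not independent replicates. Of the 7 members below 40% GC all were higher, where 62.2% of all genes were, and from 40% to 45% it was 9 of 12 members, where 35.4% of genes were. From 45% to 50% GC 2 of 9 members were higher and 2 lower, beside 20.4% and 32.0% of genes. From 50% to 55% it was 1 of 4 higher and 2 lower, beside 17.4% and 36.2%. At 55% and above 4 of 6 members were higher and 2 lower, beside 18.3% and 36.9%, and the 4 are UBE2M, UBE2S, UBE2O and UBE2L6. The part of GC content in the members' differences was not tested. The trend that was removed joins GC content, length and abundance, and it was estimated from these same fold changes (R2 0.096 over tested genes). Its removal is therefore no independent check and cannot single out GC content.

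**Figure D4:**
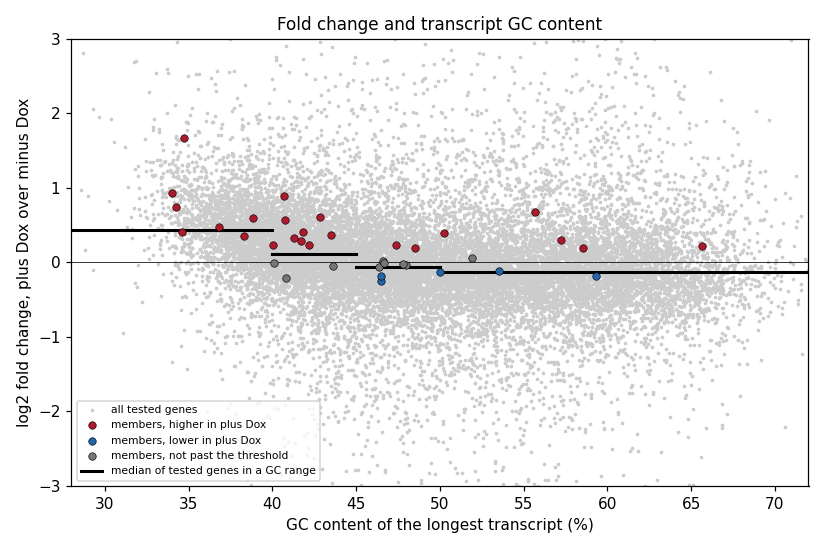
Log2 fold change of plus Dox over minus Dox (y axis) against the GC content of the longest transcript (x axis, percent) for all tested genes (light grey) and 37 tested members (coloured by call), with black lines at the median of all tested genes in each GC range. The 7 members below 40% GC lie above 0, and UBE2S, UBE2M, UBE2O and UBE2L6 lie above 0 at 55% and more.

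With this trend removed, several of the larger values shrank while others held. UBE2D1, UBE2V2, UBE2K and UBE2J1 were no longer called higher and UBE2A was called lower, while UBE2W, UBE2B, UBE2S, UBE2E1, UBE2G1 and UBE3A stayed higher, at 0.96, 0.74, 1.01, 0.64, 0.47 and 0.35. Of the 23 members called higher, 16 were called higher in all 11 alternative fits, 2 of the 9 not past stayed so, and 1 of the 6 called lower kept its call. The other 5 lower calls were lost or turned in at least 1 alternative.

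**Figure D5:**
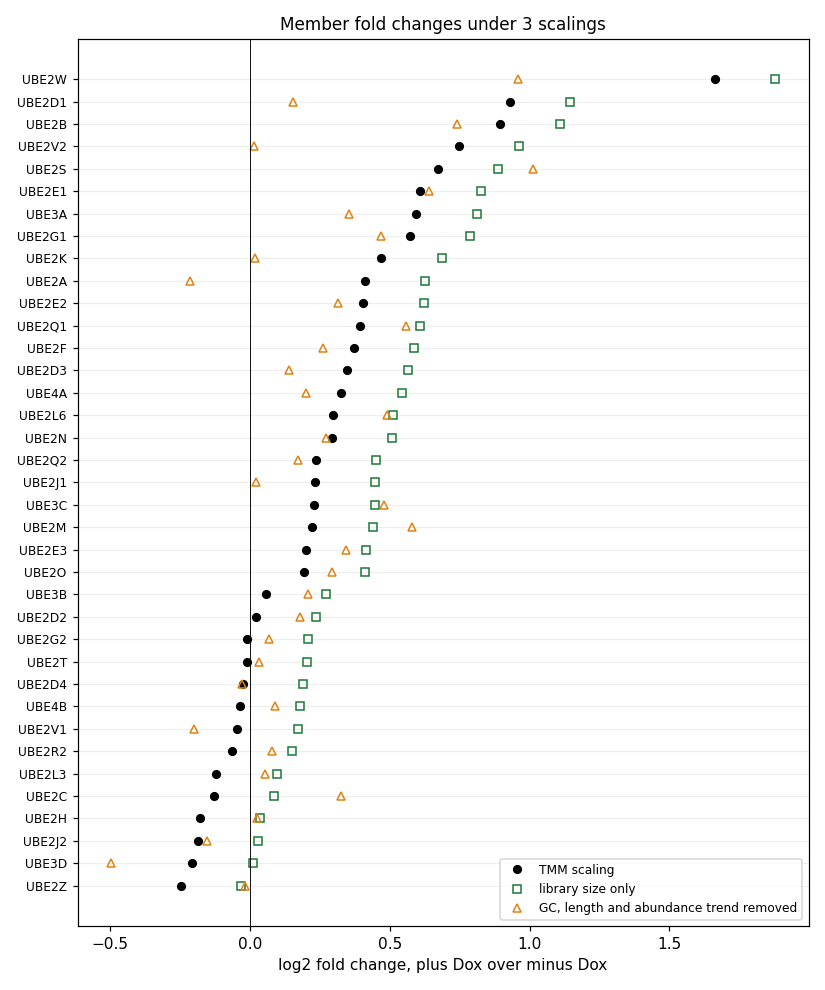
Log2 fold change of plus Dox over minus Dox (x axis) of 37 tested members with TMM scaling, with library size only, and after removal of the GC, length and abundance trend, in the order of the TMM values. Library size only moves every member shown to the right, and the trend removal moves UBE2V2 to 0.02 and UBE2D1 to 0.15 but leaves UBE2S at 1.01.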

How the data were processed

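PolyA RNA was measured in 4 libraries, 2 plus Dox and 2 minus Dox, made with a stranded mRNA kit per the labels' protocols. The deposited values are raw read counts per Ensembl gene with no normalization, per the file headers. The submitters' processing notes name DRAGEN, cutadapt 4.0, STAR 2.7.10b, featureCounts 2.0.3, DESeq2 2.11.40.7 and the build hg38, without roles. Which annotation release was counted, and with which strand option, is not given in the sources used here, so reads of overlapping genes cannot be told apart.

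Gene type, position, exon length and GC content came from GENCODE 29, in which 57447 of the 58051 listed genes were found. Members were protein-coding genes with a symbol starting UBE2, UBE3 or UBE4. Genes were filtered with filterByExpr at its defaults and scaled by TMM (factors 1.077 and 1.079 in plus Dox, 0.930 and 0.926 in minus Dox). They were tested with edgeR 4.0.16 (R 4.3.3), quasi-likelihood, group only, all 18046 genes together, Benjamini-Hochberg adjusted p under 0.05. The script was tested on simulated data. Fold changes are plus Dox over minus Dox. The SE is the absolute log2 fold change divided by the square root of edgeR's F statistic. TPM divides counts by the bases covered by any exon, is brought to the same sum in every library and is not TMM-scaled. A count of 0 allows up to 3 counts, 0.0740 to 0.0964 CPM before scaling, for counting error only. Replicates of a group differed by more than counting noise (chi-square per degree of freedom 2.25 in plus Dox and 4.13 in minus Dox).

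Members and pathway lists (E1 genes, ubiquitin-like modifiers, E2-fold genes, ligase classes, cullins, SUMO, deubiquitinases, interferon, cell cycle and Fanconi genes, AP-1 members) were chosen with earlier results of these data known. Lists are given as counts and medians, with no test. Results of a few genes, 1 member among them, are counted but not reported by name here. Named with every library's value are members past the threshold by 0.5 or more on the log2 scale, the 5 with the highest TPM and their close paralogs, and some further members, chosen after their values were seen; from each list, up to 4 tested genes with the lowest adjusted p are named. Alternatives were library size only, DESeq2 1.42.0, median-of-ratios factors, no filter, each library left out, a replicate block, removal of a spline trend on GC, length and abundance, and both of the last. The trend was fitted to the fold changes of the tested genes themselves. Its removal can also take out differences between the groups that happen to follow these variables.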

Additional observations from a re-analysis of the deposited data

How the results depend on the processing

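In the 11 alternative fits the number of members called higher ran from 21 to 29 and the number called lower from 1 to 6. DESeq2 called 23 higher and 5 lower, and 23 and 6 were called with median-of-ratios factors or with no filter. With library size only 7865 of all tested genes were higher and 2925 lower, and 29 members were higher and 1 lower. Leaving out each library in turn gave 21 to 23 members higher and 3 to 6 lower, with the 3 found without plus Dox replicate 1. With the longest transcript as length the summed TPM was 4259.0 in plus Dox and 3060.9 in minus Dox. The labels do not say whether same-numbered libraries were made as pairs. Their deviations from the group means correlated at 0.0175, which shows no shared shift but cannot tell how the libraries were made. With a replicate block 23 members were higher and 6 lower, beside 5219 and 5195 of all genes. Signs turned in the following. With library size only the values were 0.088 for UBE2C, 0.15 for UBE2R2, 0.096 for UBE2L3, 0.035 for UBE2H, 0.21 for UBE2T, 0.030 for UBE2J2, 0.18 for UBE4B, 0.21 for UBE2G2 and 0.15 for JUND. After removal of the GC, length and abundance trend they were 0.33 for UBE2C, 0.054 for UBE2L3, 0.024 for UBE2H, −0.21 for UBE2A, −0.028 for ATG3, −0.031 for CENPE, −0.054 for DCUN1D4, 0.0095 for ELOB, −0.055 for G2E3, and 0.20 for JUND. With the replicate block and the trend removed together they were 0.33 for UBE2C, 0.054 for UBE2L3, 0.024 for UBE2H, −0.21 for UBE2A, −0.028 for ATG3, −0.031 for CENPE, −0.054 for DCUN1D4, 0.010 for ELOB, −0.053 for G2E3, and 0.20 for JUND. The cause was not tested. Members under about 15 CPM, such as UBE2F, UBE2D4, UBE3D and UBE2V1, had the largest standard errors, 0.10 to 0.15 on the log2 scale.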

Other observations

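Deubiquitinases remove what the conjugating enzymes attach. Of 37 tested 15 were higher in plus Dox and 6 lower, beside 28.4% of all tested genes in each direction, with a median log2 fold change of 0.07 (29 and 2 with library size only). The proteasome-bound UCHL5 had 67.6 and 69.4 CPM in plus Dox, against 44.0 and 38.9 CPM in minus Dox (0.73), and 0.081 after removal of the GC, length and abundance trend, where it was not called. CYLD, which cuts lysine 63 chains, had 61.5 and 61.3 CPM in plus Dox, against 41.5 and 38.3 CPM in minus Dox (0.62). OTUD6B was higher at 0.85 and USP1, which acts on PCNA and the Fanconi proteins, at 0.43, and OTUD6B was not called with the trend removed (0.15).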
